A study of Saccharomyces cerevisiae with 9 samples.

Results

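The nuclear pore strains of the yeast deletion collection, each lacking 1 gene of the nuclear pore complex, were followed in pools grown with and without sodium arsenite. The list held 33 genes, and a strain's value was the mean over the tag probes annotated to its gene. Of these genes, 30 had a value on at least 1 array, among 5101 strains measured in all. NUP157 and SEH1 had no annotated probe, and GLE1 had probes but no value on any array, so these 3 members are not analysed here. NUP59 is annotated under its other name, ASM4. Of the 30 measured strains, 17 had at least 2 tag probes with a value and 13 had 1.

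The nuclear pore complex is the channel through which proteins and RNA pass between nucleus and cytoplasm. Its scaffold is built of an outer ring (the Nup84 complex), an inner ring and a ring of membrane proteins, and its central channel is lined with nucleoporins rich in phenylalanine-glycine (FG) repeats, which bind the transport receptors. A platform on the cytoplasmic face remodels exported mRNA, and a basket on the nuclear face holds import and mRNA surveillance factors. In yeast many single nucleoporin deletions are viable, several of them in genes with a closely related paralog, whereas other nucleoporins are essential.

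All pools came from BY4743, a diploid of the S288C strain background. It is homozygous for ura3delta0, leu2delta and his3delta1, heterozygous for lys2delta0/LYS2 and met15delta0/MET15, and carries the reporter can1delta::LEU2-MFA1pr-HIS3 over CAN1, which allows MATa haploid progeny to be selected. In each strain 1 gene copy is replaced by kanMX (xxx::kanMX/XXX). Haploid progeny of the sporulated pool were grown at 30 °C to confluence on "Magic Marker" haploid-selection plates with 0, 100, 200, 400, 800 or 1600 µM sodium arsenite (1 array per dose). The heterozygous diploid pool, which keeps 1 intact copy of every gene, was grown in liquid YPD for 10 generations with 0 or 450 µM (1 array each). A last pool had been transformed with pfd1::TEF1pr-URA3, so that its haploid progeny also lack PFD1, a subunit of the chaperone prefoldin. Its arsenite plates held 5 µM and no uracil, whereas its control plates held uracil and no arsenite, so that both conditions differ between its channels and cannot be told apart. On every array the reference was the same pool grown without arsenite, and the aliquots for both channels were split from the same cells.

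Values are log2 ratios of tag abundance in arsenite over control relative to the median strain of the array, so a value of -1 means a factor of 2 less than the median strain. The direction is likely rather than settled, because the deposited table does not state it. Its basis is that 4 uracil synthesis strains had a median of -4.60 on the array whose arsenite plates lack uracil, and that the strain lacking the arsenite exporter ARR3 lay between -6.90 and -5.50 at 100 to 800 µM. Between 3713 and 8879 probes and between 2508 and 4904 strains had a value per array. The haploid 1600 µM array stood apart, with the fewest probes and a median of the deposited values, in their own direction, of 2.99, against -0.09 to 0.12 on the other 8 arrays. The tag error, taken from the difference between a strain's 2 tags, was 0.38 to 0.40 for a strain with 1 tag and 0.27 to 0.28 for a strain with 2 tags on the haploid arrays from 0 to 800 µM, and 0.55 and 0.39 at 1600 µM. This error covers the tags only, since no condition has a replicate array. On the haploid 0 µM array the central 99% of strains lay between -1.39 and 1.37, which serves below as the background range. Tags of a strain tended to sit on the same side on both 0 µM arrays (r = 0.46 across 3769 strains, a description across strains that share tags and dyes), so part of a single-array value was present without arsenite. The arrays measure tag abundance, and slower growth and cell death cannot be told apart.

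Most nuclear pore strains stayed close to the median strain in arsenite, and a few left the background range in opposite directions. NUP1, an FG nucleoporin of the nuclear basket, reached 3.71 at 400 µM, the highest value of all 4122 strains on that array. GLE2, an mRNA export factor of the cytoplasmic face, reached -4.39 at 800 µM. At 800 µM, 4 of 19 measured members (GLE2, NUP159, NUP116 and NUP85) lay below the range, where 11.8% of all strains did, and 2 (NUP1 and NUP100) lay above it, where 7.36% of all strains did. Each of these members was read by 1 tag at 800 µM. NUP159 is an essential gene, and what its haploid tag value measures was not tested. When each strain's own 0 µM value was subtracted, a setting chosen after seeing the data, 2 of 16 members (GLE2 and NUP116) lay below the range (10.5% of all strains) and 1 (NUP1) above it (6.18% of all strains). NUP159 and NUP85 have no 0 µM value and could not enter that count.

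**Figure D1:**
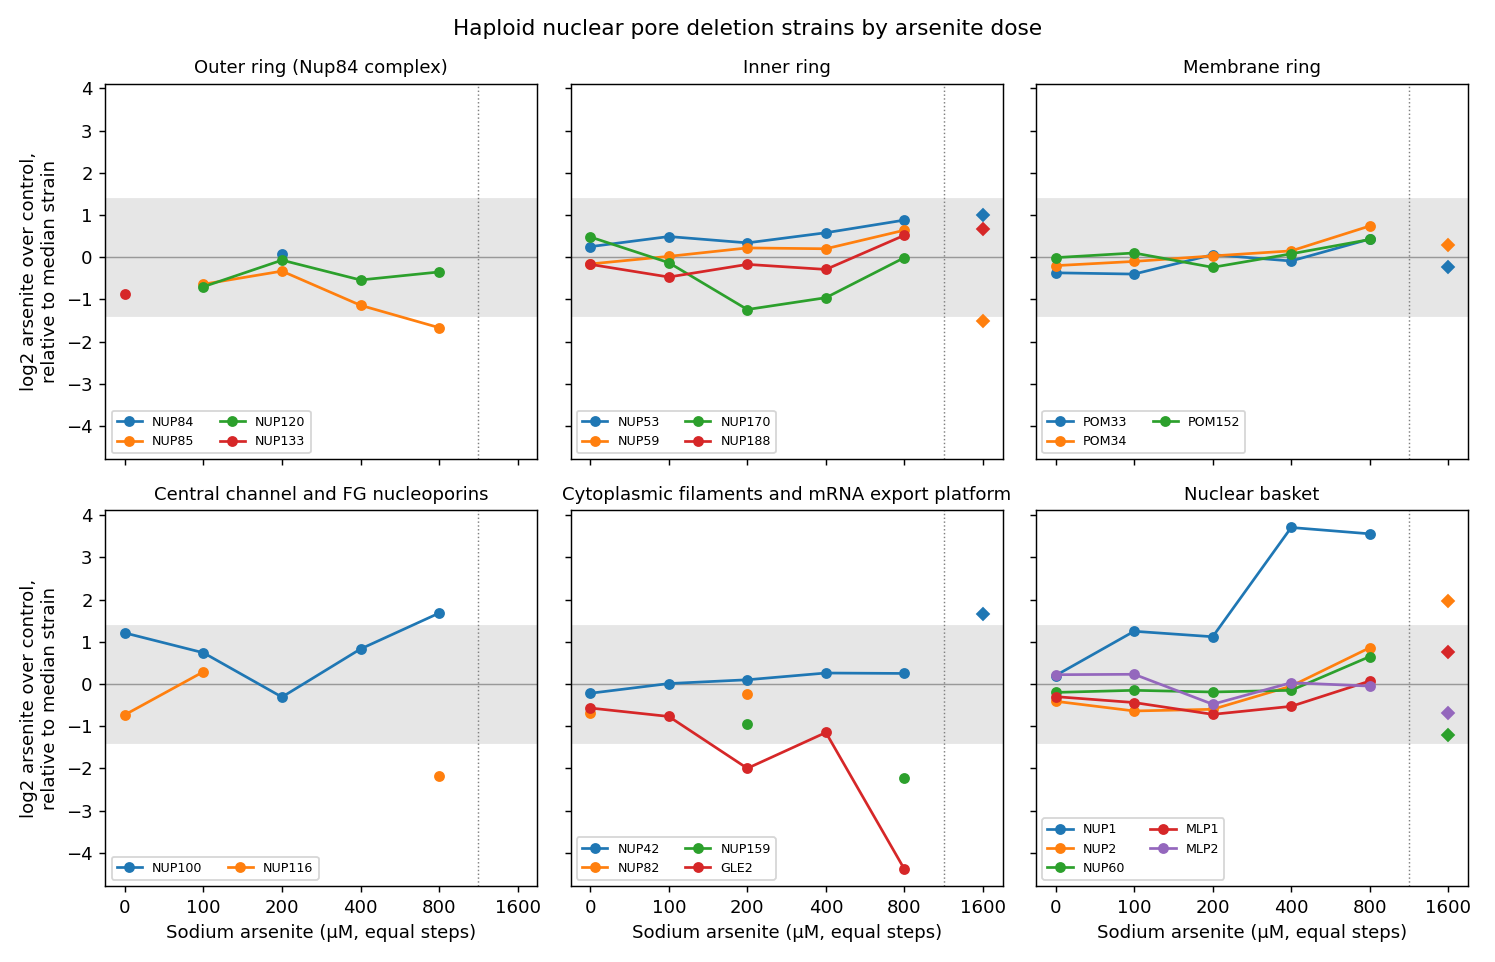
Centred log2 ratio of arsenite to control (vertical axis) for each haploid nuclear pore strain, by sodium arsenite dose in equal steps (horizontal axis) and by place in the pore; points are the mean of a strain's tags on 1 array, diamonds right of the dotted line are the 1600 µM array, and the grey band is the background range from -1.39 to 1.37. NUP1 climbs above the band to 3.56 at 800 µM, GLE2 drops to -4.39, and most other strains stay inside the band up to 800 µM.

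At lower doses fewer members left the range. At 100 µM, 0 of 18 members lay below (0.831% of all strains) and 0 above (0.367%). At 200 µM, 1 of 20 (GLE2) lay below (1.53%) and 0 above (0.839%). At 400 µM, 0 of 17 lay below (5.75%) and 1 (NUP1) above (0.825%). At 1600 µM only 10 members had a value, of which 1 (NUP59) lay below the range (3.99% of all strains) and 2 (NUP2 and NUP42) above (14.5%).

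The nuclear basket strains were the only group with all 5 members measured from 0 to 800 µM. NUP1 binds importins and links the basket to the pore. Its strain, read by 1 tag, had values of 0.20, 1.25, 1.12, 3.71 and 3.56 at 0, 100, 200, 400 and 800 µM, and none at 1600 µM. It was thus near the median strain without arsenite and above the background range at the top doses of this series, ranking 13th highest of 3956 strains at 800 µM. The strains deleted for the genes on either side of NUP1, YOR097C and the mannosyltransferase gene KTR1, stood at 1.09 and 1.48 at 800 µM.

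NUP2, a mobile FG nucleoporin that helps release imported cargo, had values of -0.41, -0.64, -0.60, -0.05, 0.86 and 1.96 at 0, 100, 200, 400, 800 and 1600 µM. Its strain, read by 1 tag, was below the median strain up to 200 µM, near it at 400 µM and above it at the top doses. On the heterozygous 0 µM array the NUP2 strain stood at -0.59 as well. NUP60, which anchors NUP2 and the MLP proteins to the basket, lay between -0.20 and 0.65 up to 800 µM and at -1.20 at 1600 µM, within the background range throughout. MLP1, a coiled-coil basket protein that retains unspliced mRNA, had values of -0.30, -0.44, -0.72, -0.53, 0.07 and 0.75 from 0 to 1600 µM. Its paralog MLP2 had values of 0.22, 0.23, -0.48, 0.03, -0.05 and -0.69 over the same doses. Both MLP strains stayed inside the background range at every dose, and they lay on opposite sides of the median strain at every dose except 200 µM. At 0, 100, 400 and 800 µM, however, the MLP2 value was smaller than the tag error for a strain with 1 tag, so its side is uncertain there.

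On the cytoplasmic face, GLE2 (the yeast relative of RAE1) binds NUP116 and acts in mRNA export. Its strain, read by 1 tag in the haploid pool, had values of -0.57, -0.77, -2.0, -1.15 and -4.39 at 0, 100, 200, 400 and 800 µM, and none at 1600 µM. It was below the median strain on all 5 arrays and the 39th lowest of 3956 strains at 800 µM. KAP123, which encodes an importin of ribosomal proteins, is the next protein-coding gene after GLE2 in the RefSeq gene table (assembly R64), and its strain had a value of -4.47 at 800 µM. MAM1, the meiotic gene on the other side, stood at 0.10. Whether loss of a neighbouring gene's function has a part in the GLE2 value was not tested.

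NUP42, an FG nucleoporin that binds GLE1 and acts in mRNA export under stress, had values of -0.22, 0.01, 0.10, 0.26, 0.25 and 1.66 from 0 to 1600 µM, each the mean of 2 tags. Only its 1600 µM value lay outside the background range. NUP159, which docks the mRNA export helicase DBP5, was measured in the haploid pool on 2 arrays only, at -0.95 at 200 µM and -2.22 at 800 µM. NUP82, the scaffold of this platform, had haploid values of -0.69 at 0 µM and -0.23 at 200 µM. Both NUP159 and NUP82 are essential genes, so a viable haploid null is not expected in these pools. The 11 members taken as essential were listed from general knowledge, and whether others, such as NUP1, are essential in this background was not checked. Of the 11, 0 to 2 had a value on an array of the haploid dose series. On the array of haploids lacking PFD1 5 had one, and on the heterozygous arrays 9 and 10. What the haploid tag values of essential genes measure was not tested.

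Among the central channel strains, NUP100 and NUP116 encode paralogous FG nucleoporins of the permeability barrier. NUP100, read by 1 tag, had values of 1.21, 0.74, -0.31, 0.83 and 1.68 from 0 to 800 µM, and none at 1600 µM. Its high value at 800 µM was therefore 0.47 above its own 0 µM value, and it stood at 0.81 on the heterozygous 0 µM array as well. NUP116 had a haploid value on 3 arrays, with -0.73 at 0 µM, 0.29 at 100 µM and -2.18 at 800 µM. At 800 µM these paralogs thus lay on opposite sides of the background range, with NUP100 higher by 3.86, against 1.94 at 0 µM and 0.45 at 100 µM. With 3 shared arrays that difference was not tested. NSP1, NUP49 and NUP57, the essential FG nucleoporins that form the channel trimer, had no haploid value.

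None of the outer ring strains had a value on all 5 arrays from 0 to 800 µM. NUP85 had values of -0.64, -0.33, -1.14 and -1.67 at 100, 200, 400 and 800 µM. It was below the median strain on all 4 arrays, although its tags read -1.61 and -0.66 at 400 µM and only 1 of them had a value at 800 µM. POL32, a DNA polymerase delta subunit gene next to NUP85, had a strain value of -1.61 at 800 µM, close to that of NUP85, and URB2 on the other side had none. NUP120 lay between -0.70 and -0.07 at 100 to 800 µM. NUP84 had 1 haploid value, 0.08 at 200 µM, and NUP133 had 1, -0.88 at 0 µM. NUP145 and SEC13, essential in haploids, had none.

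Inner ring strains stayed inside the background range up to 800 µM. NUP53, which binds the membrane and the importin KAP121, had values of 0.25, 0.49, 0.34, 0.58, 0.88 and 0.99 from 0 to 1600 µM. Its paralog NUP59 had values of -0.16, 0.02, 0.22, 0.20, 0.64 and -1.51. The 2 strains lay on the same side of the median strain from 100 to 800 µM. At 100, 200 and 400 µM, however, the NUP59 value was smaller than the tag error for a strain with 2 tags, so its side is uncertain there. They lay on opposite sides at 1600 µM, where the NUP59 value came from 1 tag. NUP170, a scaffold subunit whose paralog NUP157 had no probe, had values of 0.48, -0.13, -1.24, -0.96 and -0.01 from 0 to 800 µM. It was lowest at 200 and 400 µM, where its tags were close, at -1.3 and -1.17 and at -1.0 and -0.92. Its 200 µM value was the 89th lowest of 4171 strains. However, its 0 and 800 µM values came from different tags, and its tags read -0.78 and 0.51 at 100 µM. NUP188, another large scaffold subunit, lay between -0.47 and 0.52 up to 800 µM and at 0.68 at 1600 µM, whereas the essential NUP192 and NIC96 had no haploid value.

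The membrane ring strains stayed within 0.74 of the median strain in the haploid dose series. POM33, which helps to distribute pores in the envelope, had values of -0.37, -0.40, 0.06, -0.09, 0.43 and -0.23 from 0 to 1600 µM. POM34 and POM152, which partner with the essential NDC1, lay between -0.20 and 0.74 and between -0.24 and 0.42 from 0 to 800 µM. In the dose series each of these 3 strains had its highest value at 800 µM, and none left the background range at any dose measured. In haploids lacking PFD1, described below, POM33, POM34 and POM152 stood at 0.66, 2.04 and 0.50, against 0.43, 0.74 and 0.42 at 800 µM. For POM33 and POM152 that gap was smaller than the tag error in haploids lacking PFD1.

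The relation to dose was tested with limma as a straight line through each strain's values from 0 to 800 µM, with doses taken as equal steps, over the 3731 strains measured on all 5 arrays. Dose order is the only replication in this fit, and a response that bends with dose counts as scatter. Of 15 members in the fit, 0 passed an adjusted p (Benjamini-Hochberg over all strains) of 0.05 as lower, where 2.89% of all strains did, and 0 as higher, where 0.214% did. At an unadjusted p under 0.05, limma counted 1 member (GLE2) as lower (15.9% of all strains) and 5 (NUP1, NUP2, POM34, NUP59 and POM33) as higher (12.0%).

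The slope of the NUP1 strain was 0.92 per dose step (SE 0.17, 95% interval 0.50 to 1.34, limma adjusted p = 0.0555), the 3rd highest of the 3731 strains. For GLE2 it was -0.80 (SE 0.25, 95% interval -1.41 to -0.19, limma adjusted p = 0.111). The GLE2 slope was -0.30 without the 800 µM array and -0.08 with quantile normalization. NUP2 had a slope of 0.31 (SE 0.11, limma adjusted p = 0.138) and 0.11 without the 800 µM array. The other 12 slopes lay between -0.18 (NUP170) and 0.21 (POM34), with limma adjusted p-values of 0.0994 and above. Slopes were positive for 12 of 15 members (80.0%) against 52.3% of all strains, and the members' median slope was 0.14 against 0.01 for all strains. This share was not particular to the members. In the lists of related genes described below it was 80.0% for the Ran cycle and 80.0% for pore assembly and nuclear envelope genes. It was 71.4% for mRNA export, and 66.7% both for importins and exportins and for the SEA complex. By place in the pore the median slope was 0.19 for 3 membrane ring strains, 0.17 for 5 basket strains, 0.15 for 4 inner ring strains and -0.34 for 2 cytoplasmic strains, while NUP100, the only channel strain in the fit, had 0.10.

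**Figure D2:**
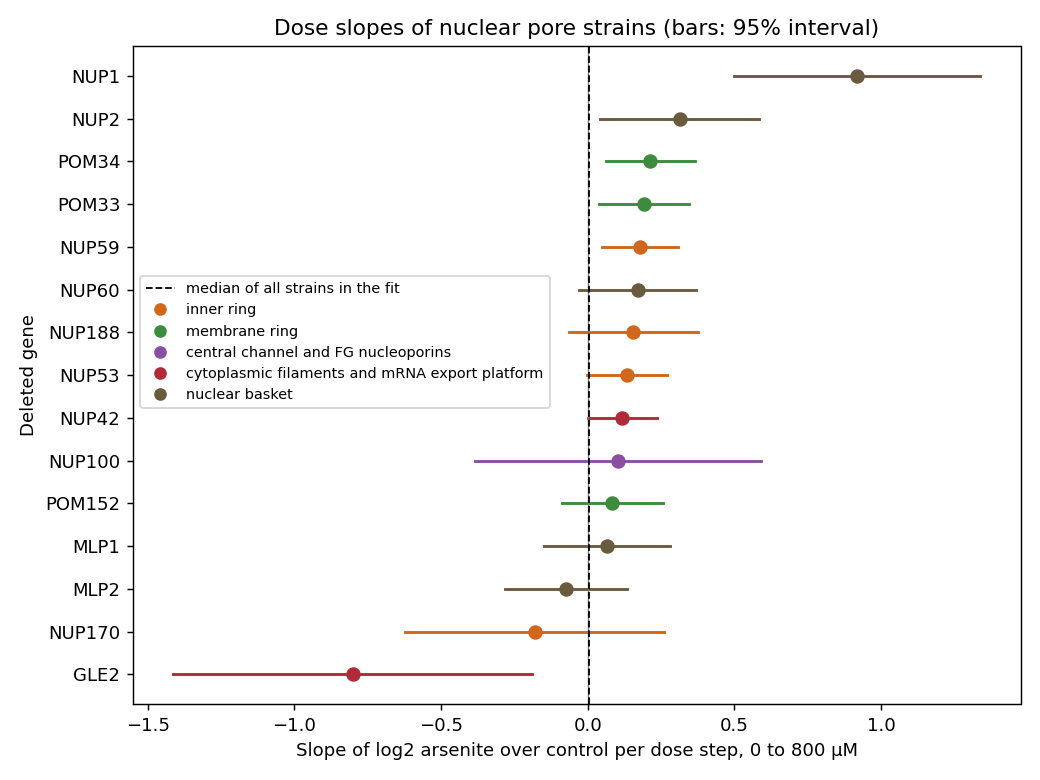
Slope of log2 arsenite over control per dose step from 0 to 800 µM (horizontal axis) for the 15 haploid nuclear pore strains in the fit, coloured by place in the pore; points are limma slopes over 5 arrays, bars their 95% intervals, and the dashed line is the median of all 3731 strains. NUP1 at 0.92 and GLE2 at -0.80 stand apart from the other 13 strains, which lie between -0.18 and 0.31.

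The call depended on how dose was scaled. With dose in µM instead of equal steps, limma called 6 of 15 members higher (NUP1, NUP2, NUP59, NUP60, POM33 and POM34) and 1 lower (GLE2), where 12.7% and 14.8% of all strains passed. In such a fit the 800 µM array has the most weight, and there the spread of all strains was also wider. The median absolute deviation, scaled to match the standard deviation of a normal distribution, was 0.71, against 0.30 at 0 µM. With the 1600 µM array added, 10 members and 2507 strains could be fitted. Limma then called 0 members lower and 0 higher, and 0% of all strains either way. At an unadjusted p under 0.05 that fit counted 0 members as lower (10.2% of all strains) and 5 (NUP2, NUP42, NUP53, NUP188 and POM34) as higher (16.7%).

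Paralogs were compared by the slope of the difference between both strains over the same 5 arrays, with a two-sided exact permutation test of the dose order, whose smallest p is 0.0167. NUP53 minus NUP59 changed by -0.04 per dose step (exact permutation p = 0.4, adjusted over 3 pairs 0.4). MLP1 minus MLP2 changed by 0.14 per dose step (exact permutation p = 0.217, adjusted 0.326). POM33 minus its paralog PER33, which is not a listed member, went from 0.27, 0.06, 0.04 and -0.14 to -0.47 between 0 and 800 µM. That slope of -0.17 had the smallest p the exact permutation test can give, 0.0167, which became 0.0501 when adjusted. Adjusted over 3 pairs, 1 pair alone at this smallest p cannot come under 0.05, so the test could not have called it. PER33 itself stood at -0.64 at 0 µM and 0.90 at 800 µM.

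Strains lacking other nuclear transport genes were read from the same fit. Of 15 importin and exportin genes, 6 strains were in the slope fit and 1 passed the test. KAP123 had values of 0.53, -0.55, -2.04, -3.09 and -4.47 from 0 to 800 µM and fell by 1.25 per dose step (SE 0.05, limma adjusted p = 0.00151). The lowest other slope in that group was -0.05 (LOS1, the tRNA exportin), and the highest were 0.45 (KAP120, limma adjusted p = 0.32) and 0.44 (KAP122, limma adjusted p = 0.102). In the Ran cycle, which gives transport its direction, 5 of 9 strains were in the fit and 0 passed the limma test, and the median slope was 0.14. The tags of GSP1, the main Ran gene, had a slope of -0.62 (limma adjusted p = 0.07), and those of its paralog GSP2 had 0.24 (limma adjusted p = 0.221). GSP1 is an essential gene, so the limit given for NUP82 and NUP159 holds for its haploid tag values too.

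Of 18 genes of mRNA export and the pore-bound TREX-2 complex, 7 strains were in the fit. THP2, a subunit of the THO complex, fell by 0.36 per dose step (SE 0.06, limma adjusted p = 0.0435), and 0 strains were called higher. The strains lacking the TREX-2 subunits THP1 and SAC3 had slopes of 0.42 (limma adjusted p = 0.0659) and 0.29 (limma adjusted p = 0.287). Of 14 pore assembly and nuclear envelope genes, 10 were in the fit, 0 passed the limma test, and the slopes ran from -0.34 (ULP1, the pore-bound SUMO protease, also an essential gene) to 0.47 (SPO7, a regulator of nuclear membrane lipid synthesis).

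SEH1 and SEC13 are also subunits of the SEA complex, which acts on the TORC1 growth regulator at the vacuole. Of 6 genes for the other SEA subunits, 5 had a value, 3 were in the fit and 0 passed the limma test. At 800 µM the strains lacking SEA4 and RTC1 stood at -4.68 and -3.51, whereas those lacking NPR2 and NPR3, the inhibitory side of the complex, stood at 2.59 and 1.61. MTC5, on the same side of the complex as SEA4 and RTC1, stood at -0.29, so that side was not uniform. RTC1 and MTC5 were not in the fit and are named after their values were seen. Neither SEH1 nor SEC13 had a haploid value to set beside them.

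In the heterozygous diploid pool, where essential members can be followed, 28 members had a value at both doses. The tag error of the difference between 450 and 0 µM was 0.30 for a strain with 1 tag and 0.21 for one with 2 tags. SEC13, which is part of the outer ring and of the COPII coat of secretory vesicles, had the lowest difference of the 28. Its strain had values of -0.10 at 0 µM and -1.64 at 450 µM, a difference of -1.55, which ranked 36th lowest of 4684 strains. Its 2 tags agreed, reading -0.04 and -0.15 at 0 µM and -1.51 and -1.78 at 450 µM. The strains of the genes on either side, HRD3 and PNP1, had differences of -0.82 and -0.41. SEC13 was the only 1 of 28 members lower by more than 1 in log2 (1.94% of all strains), and 0 were higher by more than 1 (1.09% of all strains). With 1 array per dose these differences have no test.

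**Figure D3:**
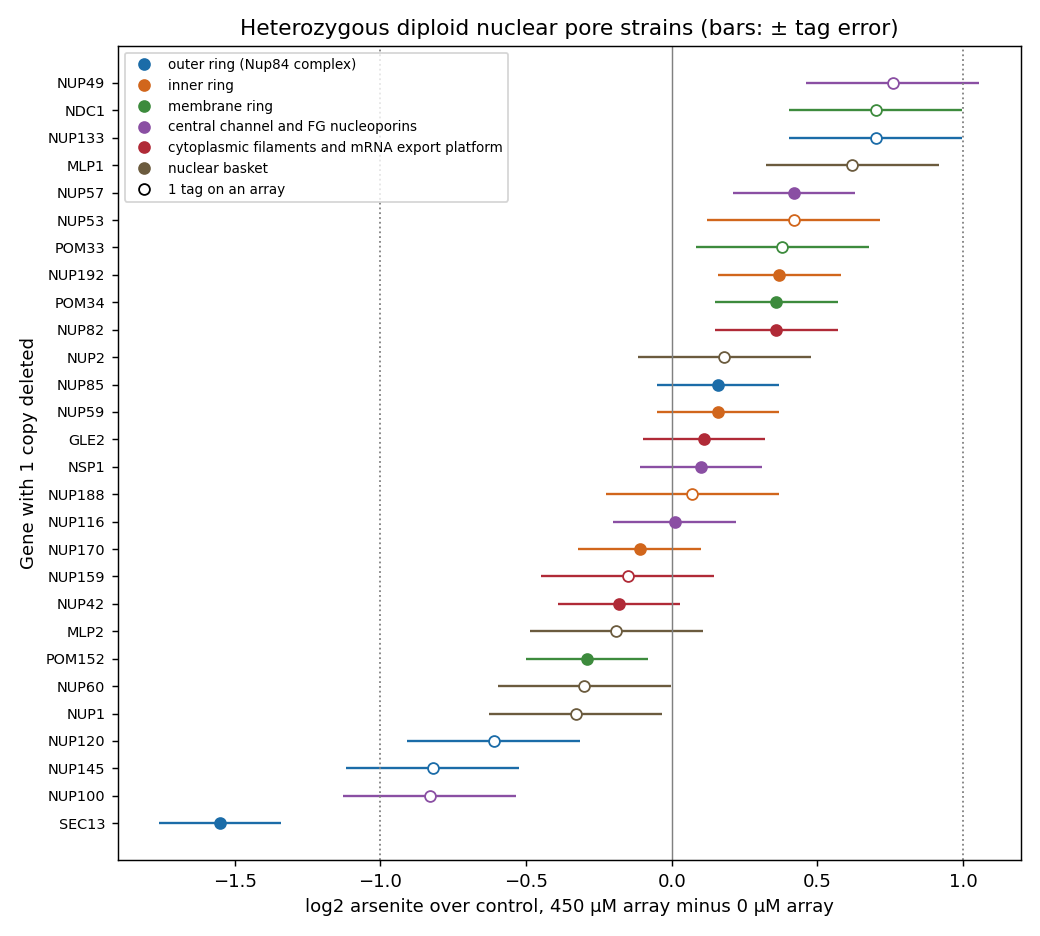
Difference in log2 arsenite over control between the 450 and 0 µM arrays (horizontal axis) for 28 heterozygous nuclear pore strains, coloured by place in the pore; bars are plus and minus the tag error, open points had 1 tag on at least 1 array, and dotted lines mark -1 and 1. SEC13 at -1.55 is the only strain beyond a dotted line, and the next lowest are NUP100 at -0.83 and NUP145 at -0.82.

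NUP145, whose essential product cleaves itself into an FG protein and an outer ring subunit, stood at -0.29 and -1.11 at 0 and 450 µM, a difference of -0.82 from 1 tag. NUP100 had a difference of -0.83 and NUP120 of -0.61, each from 1 tag, and in NUP100 the values were 0.81 and -0.02. The highest differences were 0.76 for NUP49, 0.70 for NDC1 and 0.70 for NUP133, each with 1 tag on at least 1 array. For NUP49 the only tag read at 0 µM, at -0.14, stood at 0.83 at 450 µM, where the other tag stood at 0.41. The other 21 members lay between -0.33 (NUP1) and 0.62 (MLP1). By place in the pore, the median difference was -0.61 for 5 outer ring strains, 0.16 for 5 inner ring strains, 0.37 for 4 membrane ring strains, 0.10 for 5 channel strains, -0.02 for 4 cytoplasmic strains and -0.19 for 5 basket strains. Outer ring members lay on both sides, with NUP85 at 0.16 and NUP133 at 0.70.

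NUP1 and GLE2, the members furthest from the median strain in haploids at 800 µM, had small differences as heterozygotes. NUP1 stood at 3.56 in haploids at 800 µM and had a heterozygous difference of -0.33, and GLE2 stood at -4.39 and 0.11. These are unlike measures, since only the heterozygous one has the 0 µM value subtracted. With its own 0 µM value subtracted, haploid NUP1 stood at 3.36 and GLE2 at -3.82 at 800 µM. POM33 stood at 0.80 by that measure, against a heterozygous difference of 0.38. Correlations were taken between the haploid 800 µM value, without subtraction, and the heterozygous difference. Across the 19 members measured on these arrays and in haploids lacking PFD1, Pearson's r was -0.18 and Spearman's rho -0.01. Across 3797 strains they were 0.17 and 0.12. The pools also differ in medium, dose and growth, so these values are set side by side only. NIC96, the inner ring protein that holds the channel trimer, had a value only at 450 µM, where it read 1.68 from 1 tag, the 9th highest of 4904 strains. Without a 0 µM value it could not be told apart from a standing offset of that tag.

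In the haploids that also lack PFD1, 24 members had a value, of which 4 (NUP1, NUP170, NUP120 and POM34) lay above the haploid background range, where 5.64% of all strains did, and 0 lay below it, where 4.47% did. Of the 24, 5 are among those taken as essential (NUP82, NUP145, NUP159, NUP192 and NSP1). Their tag values in this haploid pool carry the limit given above. NUP170, NUP120 and POM34 are named here because they make up this count, after their values were seen. NUP1 stood at 3.09, the 9th highest of 4612 strains. NUP170 stood at 2.20 with tags at 2.12 and 2.27, and POM34 at 2.04 with tags at 1.94 and 2.13. NUP120 stood at 2.04 from 1 tag. NUP84, another outer ring strain, was next at 1.35, just inside the range, followed by the paralogs NUP59 at 1.22 and NUP53 at 1.07. MLP2, NUP82, NUP145 and GLE2 were the lowest at -0.47, -0.58, -0.62 and -0.65. The GLE2 tags read -0.24 and -1.06, and its plain haploid values come from the tag at -1.06 alone.

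**Figure D4:**
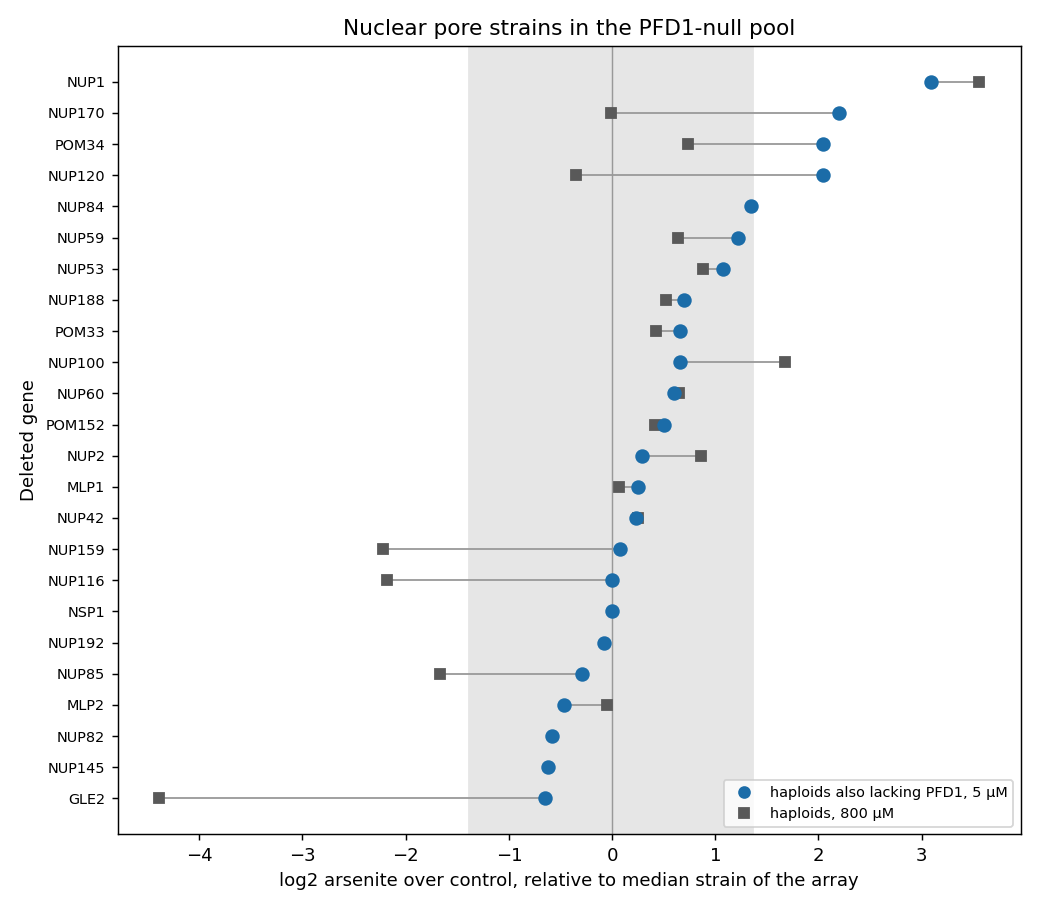
Centred log2 ratio of arsenite to control (horizontal axis) for 24 nuclear pore strains in haploids also lacking PFD1 at 5 µM (circles) and, where measured, in plain haploids at 800 µM (squares); each point is the mean of a strain's tags on 1 array and the grey band is the haploid 0 µM background range. NUP1 is high in both, at 3.09 and 3.56, whereas GLE2 is at -0.65 and -4.39 and NUP170 at 2.20 and -0.01. GLE2 and NUP170 were read by 2 tags at 5 µM and by 1 tag at 800 µM.

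NUP1 was thus above the range in both haploid pools. NUP120, NUP170 and POM34 stood at -0.35, -0.01 and 0.74 in plain haploids at 800 µM, and the 4 members below the range there, GLE2, NUP159, NUP116 and NUP85, stood at -0.65, 0.08, 0.00 and -0.29 in haploids lacking PFD1. Across 19 members measured on these and the heterozygous arrays Pearson's r was 0.65 and Spearman's rho 0.61, against 0.42 and 0.36 across 3797 strains. These are descriptions across strains, which share tags, dye orientation and pool on each array. The tag error on this array was 0.48 for a strain with 1 tag and 0.34 for one with 2 tags.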

How the data were processed

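The authors deposited a log2-like log ratio per tag probe for 9 two-colour arrays (control Cy5, arsenite Cy3, no dye swap, per the labels); no source used here gives its base, scale, centring, direction or filters. Values were taken as log2, although the natural log is possible and would enlarge every printed log2 value by a constant factor. The sign was turned to arsenite over control, the probes of a strain were averaged, and each array was centred on its median strain. Of 22575 probes, 9727 had a value, of which 8765 were annotated to 1 gene, 962 to none and 0 to several. UpTag and DnTag probes are not told apart by the annotation, so the tag sets are by table position. Slopes per dose step came from limma 3.58.1 (lmFit and eBayes, R 4.3.3, two-sided, Benjamini-Hochberg over all strains), a script also tested on simulated data, and summaries were made in Python 3.11.15. The 5-array fit from 0 to 800 µM leaves out the 1600 µM array.

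The members, the lists by place in the pore, the 5 lists of related genes, the tests and the omission of 1600 µM were chosen with earlier results of these data known. Members were given with every value of the haploid dose series if the slope passed or if they belonged to a paralog pair. The same held if they left the central 99% of the haploid 0 µM strains on a haploid arsenite array. It also held if the heterozygous difference passed 1 in log2. Values on the other arrays were given for some of these members only, and the remaining members were given by ranges and counts. In the lists of related genes, those passing the test and the lowest and highest slopes were named. Neighbouring genes were taken from the order of genes in a RefSeq gene table (assembly R64). Tag sequences were not used here. Alternatives covered normalization, centring, the prior, the dose scale, tags per strain, missing values, the arrays included, the background range and the reference.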

Additional observations from a re-analysis of the deposited data

How the results depend on the processing

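No member's slope passed the adjusted threshold from 0 to 800 µM under the other fits, with 2 exceptions. On linear dose 1 member was called lower and 6 higher, and with tag set 1 only 1 was called higher (NUP1, limma adjusted p = 0.043). Over the 11 other settings fitted per dose step, the NUP1 slope lay between 0.50 and 1.04 (limma adjusted p 0.043 to 0.223) and the GLE2 slope between -1.01 and -0.08 (0.0639 to 0.813). On linear dose they were 0.43 (adjusted p 0.0209) and -0.45 (0.0109) per 100 µM. Slopes changed sign for NUP59 (-0.14) and NUP60 (-0.073) with the 1600 µM array added, for NUP100 with quantile normalization (-0.16), with scaling to the same median absolute deviation (-0.15) and without the 800 µM array (-0.22), for NUP170 without the 0 µM array (0.065), and for NUP188 (-0.006), POM152 (-0.006) and MLP1 (-0.10) without the 800 µM array. Calls over all strains ranged from 0 to 554 lower and 0 to 474 higher, against 108 and 8. The POM33 minus PER33 slope on linear dose was -0.086 per 100 µM (exact permutation p = 0.00833, adjusted p = 0.025). That p is the smallest that 120 orderings can give.

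Counts outside the background range depended on its width, and each is given with the percentage of all strains under the same setting. With the central 95% of strains, 1 member lay below (3.37%) and 1 above (2.27%) at 100 µM, 3 (5.27%) and 1 (2.66%) at 200 µM, and 3 (12.6%) and 2 (3.69%) at 400 µM. At 800 µM, 4 of 19 lay below (20.0%) and 4 above (15.0%) that range. At 1600 µM, 2 lay below (18.0%) and 3 above (22.1%), and in haploids lacking PFD1 0 lay below (12.0%) and 7 above (10.9%). Among members with at least 2 tags, 0 lay below at 200 µM (1.01%), 0 above at 400 µM (0.249%), 0 below (8.39%) and 0 above (6.06%) at 800 µM, where 4 members entered, and 0 below (3.54%) and 1 above (13.6%) at 1600 µM. With equal median absolute deviations, 1 lay below (2.40%) and 1 above (0.607%) at 800 µM. After subtraction of the 0 µM array (chosen after seeing the data), 3 lay below at 200 µM (1.17%), 1 below at 400 µM (4.67%), 2 below (10.5%) and 1 above (6.18%) at 800 µM, and 0 below at 1600 µM (4.35%). On the heterozygous 450 µM array alone, 2 members (SEC13 and NUP145) lay below -1 (1.90%) and 1 (NIC96) above 1 (1.33%). Fewer members enter where 2 tags or the 0 µM array are required, and otherwise the cause was not tested. No paired analysis was possible because each pool and dose has 1 array. Single tags, 1 array per condition and the unstated log base limit every value.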
